A study of Mus musculus with 24 samples.

Results

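The change of the Xb130-/- thyroid between W4 and W12 was followed in 8 of the 24 arrays of the series, namely the 4 arrays of Xb130-/- mice at W12 and the 4 arrays of Xb130-/- mice at W4. Each array held total RNA of the thyroid of 1 male mouse. Xb130-/- mice carry a deletion of Xb130 in the whole body, in both of the groups compared, and received no treatment. The 8 arrays of Xb130+/+ mice, wild-type mice of the same ages with 4 arrays each at W12 and W4, were used to ask whether a change was particular to the knockout. The labels give the older mice as 3 months old, which the paper calls W12.

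XB130, the product of the gene Afap1l2, is an adaptor protein under the apical membrane of thyrocytes, the follicle cells that make thyroid hormone (TH). Thyrocytes take up iodide, attach it to thyroglobulin in the follicle lumen and release TH under the control of thyrotropin (TSH), which acts through cAMP. The gland also holds C cells, which are neuroendocrine cells that store calcitonin in dense-core granules, as well as fibroblasts, vessels and immune cells. In mice a thyroid that cannot make enough TH early in life enlarges under TSH, and the study followed this period in Xb130-/- mice.

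The deposited values are log2 expression values between 2.02 and 14.03, and 23185 probe sets with 1 gene symbol each were tested as genes. Every level below is on this log2 scale, and every fold change is the log2 difference W12 minus W4 with its standard error (SE) and 4 mice per group. Values of single mice are given in the order LH7721, LH7723, LH7725 and LH7727 at W12 and LH7713, LH7715, LH7717 and LH7719 at W4. A gene was called higher or lower when its limma p, adjusted by Benjamini-Hochberg over all genes, was under 0.05. Nothing in the labels says that samples of a group came from separate litters or days, so the spread is that between these mice.

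Afap1l2 marked the genotypes as labelled. It had 9.28, 9.31, 9.43 and 9.37 in Xb130-/- mice at W12 and 8.97, 9.50, 9.07 and 9.11 in Xb130-/- mice at W4, against 10.64 to 10.80 at W12 and 10.41 to 10.92 at W4 in Xb130+/+ mice. The remaining signal of the knockout did not pass the test between the ages (adjusted p = 0.338). Thyrocyte markers averaged 11.55 to 11.71 at W12 and 11.51 to 11.61 at W4, and Tg, the gene of thyroglobulin, stayed between 13.82 and 13.94 in all 8 mice. Some arrays also had high levels of thymus genes. The mean of Cd3e, Cd3g and Rag1, genes of developing T cells, was 6.68, 6.11, 11.2 and 10.3 in the mice at W12 and 6.58, 6.25, 9.42 and 7.02 in the mice at W4, against at most 7.23 in the Xb130+/+ mice of both ages. LH7725 and LH7727 at W12 and LH7717 at W4 stood apart and are called the arrays with high thymus markers. Of the knockout arrays at W2, used here for the shared spread and for some means, LH7707, LH7709 and LH7711 also had high values (9.35, 9.46 and 9.17). Each fit without the arrays with high thymus markers leaves these out as well. None of the 20 thymocyte markers was called between the ages, and their median change was 1.04. The mean of the 18 skeletal muscle markers ran from 8.28 to 10.7 at W12 and from 7.61 to 10.2 at W4, also with none called. Arrays of the same group correlated across genes with r = 0.981 to 0.993 at W12 and 0.992 to 0.994 at W4.

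The first question was how many genes changed in the knockout between W4 and W12. In Xb130-/- thyroid 1008 genes were called, which is 4.35% of the genes tested. Of these, 571 were higher at W12 (2.46%) and 437 were lower (1.88%). Most changes were small, with a median size of 0.41 among called genes, and a fold of at least 2 was reached by 52 of the higher and 15 of the lower genes. The 4 values at W12 lay outside the 4 values at W4 for 883 of the called genes, where such separation was found for 12.0% of all genes. With each array scaled to one median, the median change of all genes was -0.0627, against -0.00716 as deposited. With this scaling 331 genes were higher and 797 lower, so the balance between directions depends on the scaling. In a fit of the 8 knockout arrays alone 230 genes were called. Without the 3 arrays with high thymus markers and those of W2, 365 genes were called (222 higher and 143 lower). Of these, 298 were among the 1008. All 1008 genes kept their direction there, and 951 had an unadjusted p under 0.05. The 1008 genes were chosen by the fit that holds the same remaining arrays, so these counts are not separate support. Without LH7719 at W4 the count was 492, without LH7723 at W12 it was 613 and without LH7713 at W4 it was 633. In bulk tissue, fewer cells of a type and less RNA per cell cannot be told apart, and this holds for every change given here.

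The second question was which of these changes differed from those of the wild type. In Xb130+/+ thyroid 2347 genes were called between the same ages, which is 10.1% of the genes tested, with 1257 higher (5.42%) and 1090 lower (4.70%). This count was 1221 without LH7718 at W4 and 1438 without LH7724 at W12. The genes called in the same direction in both genotypes numbered 114 higher and 155 lower, or 26.7% of the knockout calls and 11.5% of the wild-type calls. Of the 1008 knockout calls, 769 had the same sign in the wild type. Across all genes the changes of the genotypes correlated weakly (Pearson r = 0.173, genes are not independent replicates). The difference between the changes passed its own test for 232 genes, of which 136 were more positive in the knockout (0.587% of the genes tested) and 96 more negative (0.414%). Both the knockout change and this difference were called for 117 genes, 80 of them higher and 37 lower in the knockout. The count of 232 fell to 102 without LH7723.

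**Figure D1:**
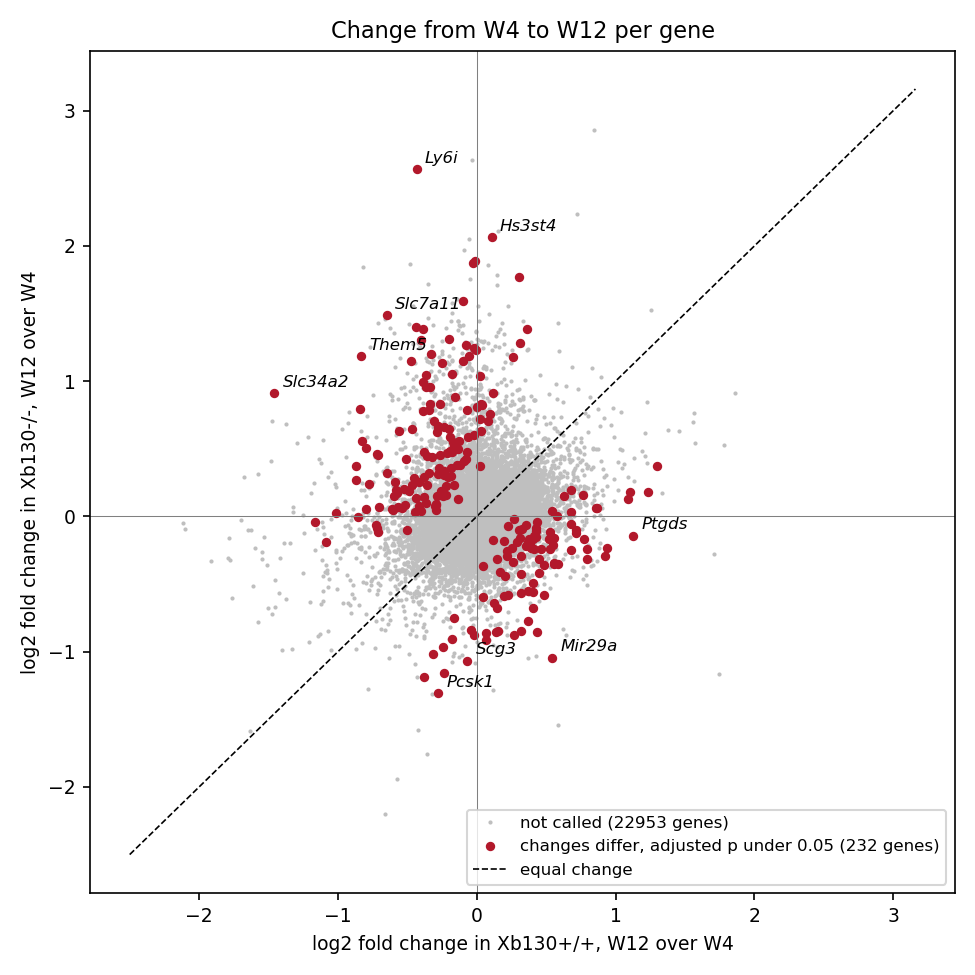
Log2 fold change W12 over W4 of each of the 23185 genes in Xb130-/- thyroid (vertical axis) against that in Xb130+/+ thyroid (horizontal axis), with the 232 genes whose changes differ in red. Ly6i and Hs3st4 lie far above the line of equal change at 2.57 and 2.07 in the knockout, and Pcsk1 lies below it at -1.31.

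Several of the genes with the largest increases kept their call with each single array left out and had no called change in the wild type. Ly6i, which encodes a small lymphocyte antigen anchored in the membrane, had 7.33, 7.35, 7.61 and 6.96 at W12 and 4.65, 5.19, 4.15 and 4.99 at W4. All 4 mice at W12 were well above all 4 at W4, with a change of 2.57 (SE 0.22, adjusted p = 8.56e-07), while the wild type changed by -0.43 (SE 0.22, adjusted p = 0.237). The difference between the genotypes was 3.00 (adjusted p = 8.42e-05). Ly6i lies in a cluster of closely similar genes on chromosome 15 (build GRCm38.p6), so its probes could also read relatives. Hs3st4, a heparan sulfate sulfotransferase, had 8.97, 9.06, 8.56 and 7.93 at W12 and 6.58, 6.45, 6.56 and 6.67 at W4. The groups were separated by over 1 log2 unit and the change was 2.07 (SE 0.18, adjusted p = 8.56e-07), against 0.11 in the wild type (adjusted p = 0.792). Coch encodes cochlin, a secreted matrix protein known from the inner ear. Its levels were 8.14, 7.78, 7.84 and 7.25 at W12 and 5.69, 6.06, 5.77 and 6.0 at W4, which do not overlap, and its change was 1.87 (SE 0.15, adjusted p = 2.96e-07), against -0.03 in the wild type.

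A further set of genes behaved alike. Mansc4 had 7.81, 8.17, 8.80 and 7.52 at W12 and 6.15 to 6.27 at W4 (change 1.88, SE 0.19, adjusted p = 6.4e-06). Vsnl1, a neuronal calcium sensor, had 8.48, 9.0, 8.82 and 9.0 at W12 and 7.23, 6.79, 7.16 and 7.05 at W4 (change 1.77, SE 0.20, adjusted p = 2.58e-05). Fezf2, a zinc finger transcription factor of cortical neurons and also of medullary thymic epithelium, had 7.05, 7.89, 7.28 and 6.80 at W12 and 5.49 to 5.91 at W4 (change 1.59, SE 0.20, adjusted p = 0.000107). In each of these genes every mouse at W12 exceeded every mouse at W4, which was part of how they were chosen. The change of Fezf2 without the 3 arrays with high thymus markers was 1.82 (adjusted p = 0.000377). The differences from the wild type were 1.90 for Mansc4, 1.47 for Vsnl1 and 1.69 for Fezf2, and each passed the test (adjusted p = 0.00124, 0.0138 and 0.00817). At W2, W4 and W12 the knockout means were 5.0, 4.74 and 7.31 for Ly6i, 6.09, 6.56 and 8.63 for Hs3st4 and 5.97, 5.88 and 7.75 for Coch, so that their increase fell between W4 and W12.

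The genes with the most positive differences between the genotypes also included Slc34a2, Slc7a11 and Them5. Slc34a2, a sodium phosphate cotransporter of apical epithelial membranes, had 10.88, 10.80, 10.48 and 10.38 at W12 and 9.39, 9.99, 9.82 and 9.69 at W4 in the knockout, against 5.72 to 6.30 at W12 and 6.90 to 8.22 at W4 in the wild type. The groups did not overlap in either genotype. The knockout change of 0.91 missed the threshold (SE 0.27, adjusted p = 0.0627), the wild-type change was -1.46 (SE 0.27, adjusted p = 0.00236), and the difference of 2.37 passed (SE 0.39, adjusted p = 0.00611). Slc7a11, the cystine and glutamate exchanger, had 7.13, 7.13, 8.01 and 7.03 at W12 and 5.77, 5.49, 6.21 and 5.87 at W4 (change 1.49, SE 0.28, adjusted p = 0.00447), against a change of -0.65 in the wild type and a difference of 2.14 (adjusted p = 0.0131). Them5, a mitochondrial acyl-CoA thioesterase, rose by 1.19 in the knockout (SE 0.19, adjusted p = 0.00106) and fell by 0.83 in the wild type (adjusted p = 0.00811). Its knockout values were 9.19 to 9.70 at W12 and 7.59 to 8.83 at W4 and did not overlap, and the difference was 2.02 (adjusted p = 0.00087). Plat, which encodes tissue plasminogen activator and was chosen after its values were seen, rose by 0.996 in the knockout (adjusted p = 0.000286), and its difference from the wild type was 1.38 (adjusted p = 0.00124). In the fit of the 8 knockout arrays alone the call of Them5 was lost (adjusted p = 0.0661).

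**Figure D2:**
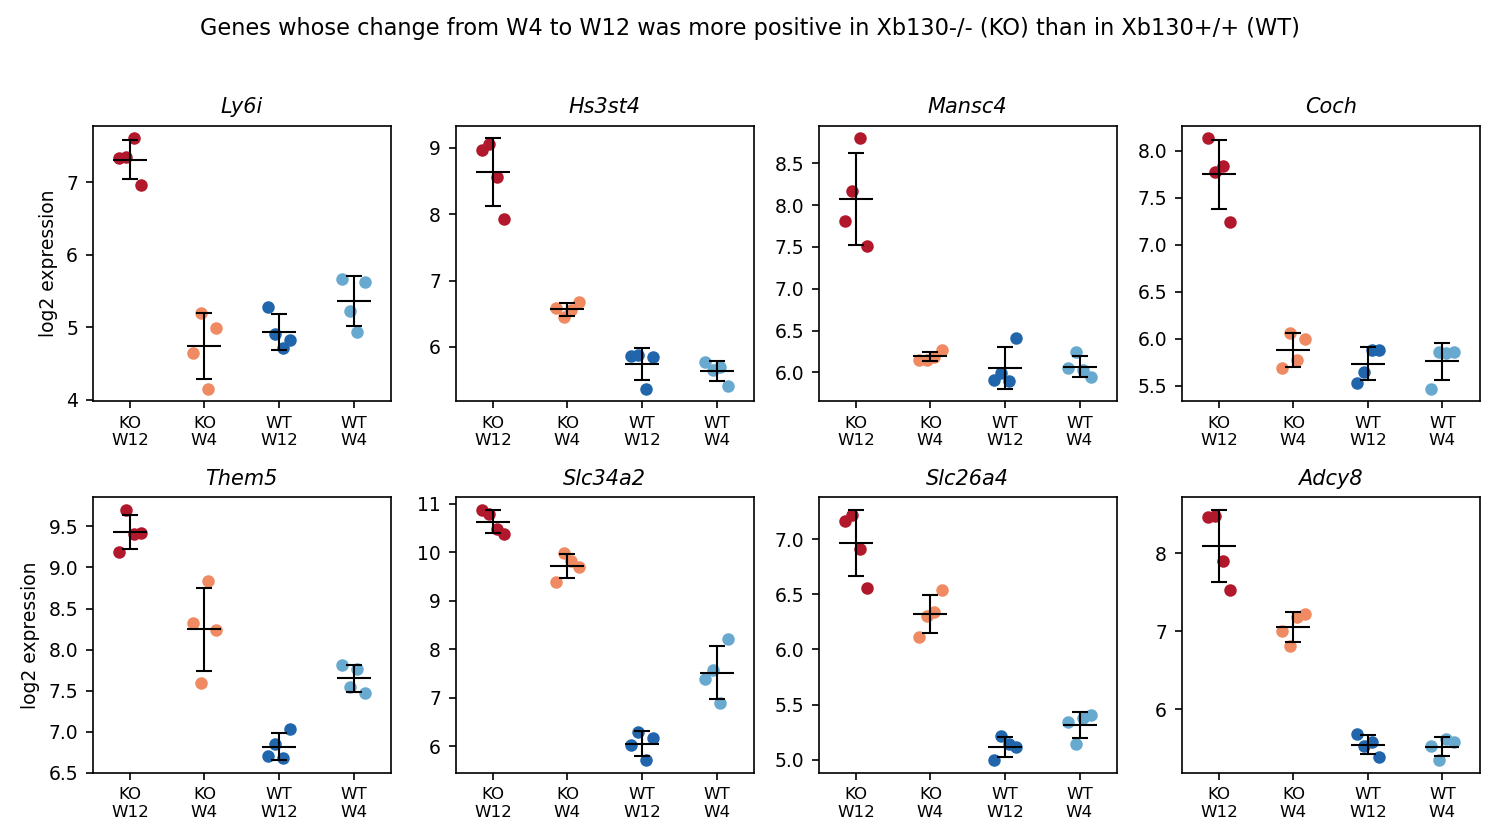
Log2 expression of 8 genes in single mice (points) with the group mean and SD (bars), for Xb130-/- at W12 and W4 and Xb130+/+ at W12 and W4, from left to right in each panel. In all 8 genes each Xb130-/- mouse at W12 was above each Xb130-/- mouse at W4, while Slc34a2 and Them5 were lower at W12 in Xb130+/+ mice. For Ly6i, Hs3st4, Mansc4 and Coch this separation was part of how the genes were chosen.

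Lrat rose in both genotypes. This enzyme stores retinol as retinyl esters. It had 8.57, 9.08, 8.30 and 7.89 at W12 and 6.84 to 7.06 at W4 in the knockout (change 1.53, SE 0.27, adjusted p = 0.00305), against 9.95 to 10.30 at W12 and 8.12 to 9.35 at W4 in the wild type (change 1.25, adjusted p = 0.00632). The difference between the changes was 0.27 (SE 0.39, adjusted p = 0.791).

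Among genes of TH production, Slc26a4 and Ano1 rose in the knockout. They were the 2 of 15 measured members of this list that were higher at W12, beside 2.46% of all genes, and none was lower. The median change of the list was -0.00 beside -0.01 over all genes. In the wild type 1 was higher and 3 were lower, beside 5.42% and 4.70% of all genes. Slc26a4 encodes pendrin, an anion exchanger that carries iodide across the apical membrane. It had 7.17, 7.22, 6.91 and 6.56 at W12 and 6.11, 6.30, 6.34 and 6.53 at W4, which just do not overlap, and changed by 0.64 (SE 0.12, adjusted p = 0.00416). The wild type changed by -0.20 (SE 0.12, adjusted p = 0.341) and the difference of 0.84 passed (adjusted p = 0.0189). Ano1, a chloride channel that also passes iodide, averaged 11.13 ± 0.14 at W12 and 10.73 ± 0.15 at W4 (SD, n = 4 mice each, without overlap, change 0.40, SE 0.08, adjusted p = 0.00701), and its difference from the wild type was not called (adjusted p = 0.234). The knockout calls of both were lost in the fit of the 8 knockout arrays alone (adjusted p = 0.0996 and 0.104). Without the arrays with high thymus markers their changes were 0.88 and 0.48.

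The other genes of this list were not called in the knockout. Their changes included -0.05 for Tg, 0.01 for Slc5a5 (the basolateral iodide symporter), 0.07 for Tshr (the TSH receptor), -0.16 and 0.23 for Duox1 and Duox2 (the enzymes that supply hydrogen peroxide), and 0.18 for Dio1 (a deiodinase, adjusted p = 0.138). The mice at W12 were separated from those at W4 in Dio1, where they were higher, and in Duoxa1, where they were lower. Duoxa1, the maturation factor of Duox1, had 10.09, 9.98, 9.90 and 10.18 at W12 and 10.20 to 10.43 at W4 (change -0.27, adjusted p = 0.258), against a called change of -0.72 in the wild type (adjusted p = 0.00216). That difference was 0.45 (adjusted p = 0.276). None of the 4 thyroid transcription factors was called in either genotype. Among 35 genes of cAMP signaling 1 was higher and 1 was lower, beside 2.46% and 1.88% of all genes. The higher one was Adcy8, an adenylyl cyclase stimulated by calcium, with 8.47, 8.48, 7.90 and 7.53 at W12 and 7.01, 6.81, 7.19 and 7.23 at W4 (change 1.04, SE 0.15, adjusted p = 0.000594). The wild type stayed at 5.39 to 5.68 at W12 and 5.35 to 5.62 at W4. Adcy8 rose in these mice without overlap, but the difference of 1.01 (adjusted p = 0.0271) lost its call when any of 6 single arrays was left out (adjusted p up to 0.0612 without LH7723), and the change itself lost it in the fit of the 8 knockout arrays alone (adjusted p = 0.0724).

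Several genes of neuroendocrine secretory granules were lower at W12 in the knockout. Pcsk1 encodes a prohormone convertase that cuts peptide hormones inside granules. It had 9.40, 9.24, 9.16 and 9.36 at W12 and 10.64, 10.72, 10.58 and 10.46 at W4, a gap of over 1 log2 unit between the groups, and changed by -1.31 (SE 0.10, adjusted p = 2.41e-07). The wild type had 10.37 to 10.84 at W12 and 10.73 to 11.09 at W4 (change -0.28, adjusted p = 0.0759), and the difference was -1.03 (SE 0.14, adjusted p = 0.00087). Scg3, a granin that helps sort cargo into granules, had 9.0, 9.06, 9.14 and 9.07 at W12 and 10.26, 10.06, 10.19 and 10.02 at W4. Its change was -1.07 (SE 0.09, adjusted p = 1.14e-06), against -0.07 in the wild type, with a difference of -1.0 (adjusted p = 0.00087). Chgb, the granin chromogranin B, had 8.30, 8.12, 8.28 and 8.29 at W12 and 9.40, 9.52, 9.47 and 9.23 at W4 (change -1.16, SE 0.14, adjusted p = 5.58e-05). All 3 genes were separated between the ages in the knockout, which was part of how they were chosen. The difference of Chgb from the wild type was -0.92 (adjusted p = 0.0267) and lost its call without any of 5 single arrays (adjusted p up to 0.0612 without LH7723).

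Further granule genes followed. Scg2, another granin, had 10.73, 10.61, 10.77 and 10.91 at W12 and 11.46 to 11.58 at W4 (change -0.75, SE 0.09, adjusted p = 5.5e-05). Ptprn, a granule membrane protein, had 9.33, 8.73, 9.06 and 9.02 at W12 and 9.66, 10.91, 9.95 and 10.59 at W4 (change -1.24, SE 0.21, adjusted p = 0.00216), and lost its call in the fit of the 8 knockout arrays alone (adjusted p = 0.0786). Resp18, a protein of the endocrine secretory pathway, had 9.43 to 10.17 at W12 and 10.68 to 10.97 at W4 (change -1.04, SE 0.16, adjusted p = 0.000758). The values of these 3 genes did not overlap between the ages. Sst, the hormone somatostatin, which C cells also make, had 8.11, 7.68, 8.93 and 8.89 at W12 and 9.62, 9.61, 9.42 and 9.15 at W4. It changed by -1.05 (SE 0.23, adjusted p = 0.0113), and the 2 arrays at W12 with high thymus markers held the higher values. Its change without the 3 arrays with high thymus markers was -1.56 (adjusted p = 0.00105), while in the fit of the 8 knockout arrays alone the call was lost (adjusted p = 0.123). Scg2 and Resp18 are outside the rule for named genes and were chosen after their values were seen.

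Not all C cell genes moved. Of 12 measured C cell markers, 4 were lower at W12 in the knockout (Ret, Chgb, Scg2 and Scg3), none was higher and none was called in the wild type, beside 1.88% of all genes lower in the knockout. This count was 4 with each single array left out in turn and in the fit of the 8 knockout arrays alone, and it was 3 without the arrays with high thymus markers, where Ret was not called (adjusted p = 0.13). The median of the list was -0.08 in the knockout. Values did not overlap between the ages for 4 members that were lower and for 1 that was higher, beside 12.0% of all genes in either direction. Ret, the receptor of glial cell line derived growth factors, changed by -0.57 (SE 0.11, adjusted p = 0.00701). The members without a call included Chga with a change of -0.06, the vesicular amine transporter Slc18a2 with 0.03 and the transcription factors Nkx2-2 and Isl1 with 0.10 and 0.28. The parathyroid hormone gene Pth, a marker of adjacent parathyroid tissue, changed by -0.08 (adjusted p = 0.39). The mean of the 7 parathyroid markers, which include Chgb, was 10.19 to 10.61 at W12 and 10.48 to 10.65 at W4 in the knockout, against 10.58 to 11.05 at W12 and 10.36 to 10.77 at W4 in the wild type. Of these markers 1 was lower in the knockout (Chgb), 3 were higher in the wild type, and the median difference between the genotypes was -0.53. The share of parathyroid tissue in the RNA was not tested. Clca3b, of the chloride channel accessory family, moved like these granule genes, with 8.68, 8.69, 8.81 and 8.87 at W12 and 9.83 to 10.12 at W4 (change -1.18, SE 0.13, adjusted p = 2.62e-05).

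**Figure D3:**
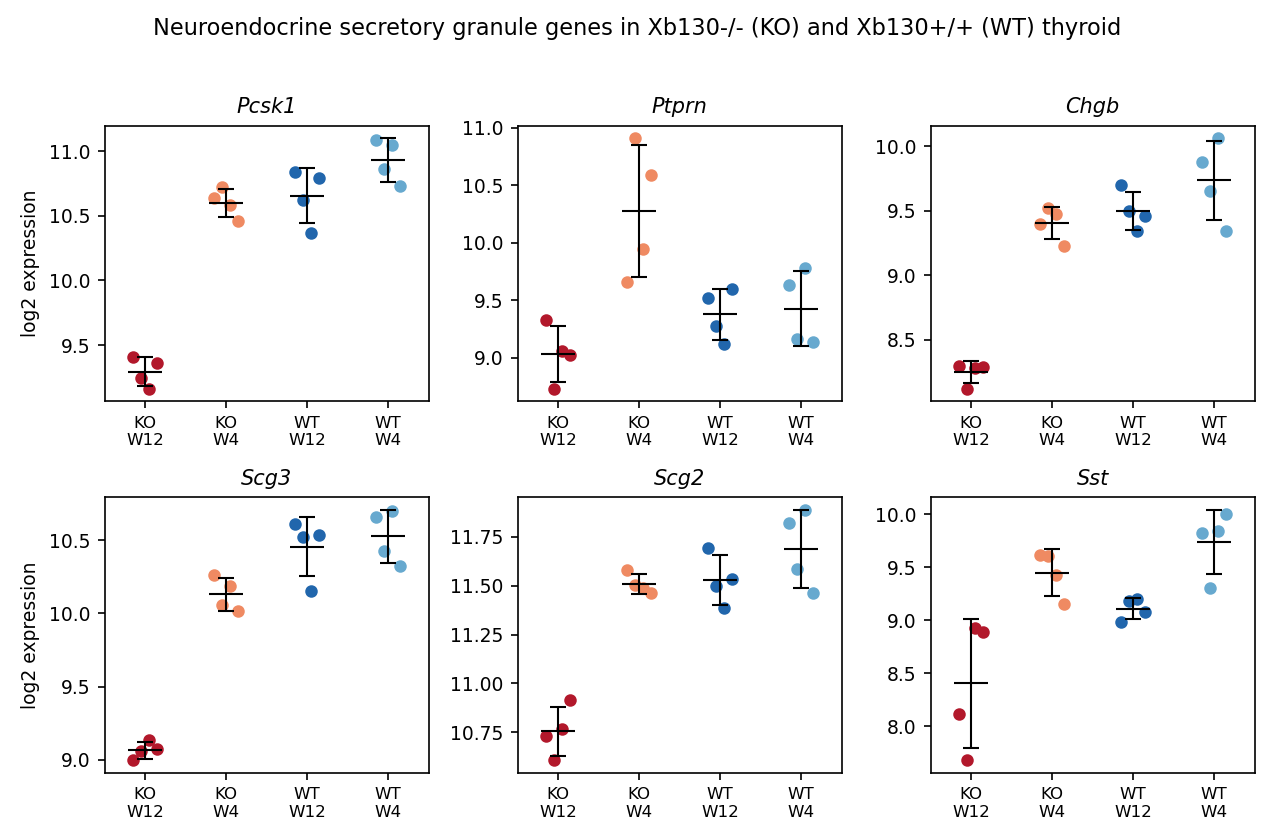
Log2 expression of 6 genes of neuroendocrine granules in single mice (points) with the group mean and SD (bars), for Xb130-/- at W12 and W4 and Xb130+/+ at W12 and W4, from left to right in each panel. The Xb130-/- mice at W12 lie below all other mice in Pcsk1, Scg3, Scg2 and Chgb, with Pcsk1 between 9.16 and 9.40.

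Promoters of several of these genes hold the sequence TGACGTCA, the palindromic form of the cAMP response element, which reads the same on both strands. It was searched in the 250 bases before the transcription start of each gene in the RefSeq promoters of build GRCm38.p6 and occurs in 508 of 32851 promoters (1.55%). Of the genes tested that had a promoter, 390 of 17452 (2.23%) held it, against 14 of the 335 genes lower at W12 in the knockout (4.18%) and 3 of the 435 higher ones (0.69%). The windows of 60 bases around it are shown for 4 granule genes and for 2 imprinted genes described next, with the match in capitals and all on the strand of the gene. They are chr13:75089753-75089812 (plus) for Pcsk1, chr2:132781544-132781603 (plus) for Chgb, chr1:79440061-79440120 (minus) for Scg2, chr16:23890859-23890918 (minus) for Sst, chr12:109540913-109540972 (plus) for Meg3 and chr7:6730564-6730623 (minus) for Peg3.
Pcsk1: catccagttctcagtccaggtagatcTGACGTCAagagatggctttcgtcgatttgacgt
Chgb: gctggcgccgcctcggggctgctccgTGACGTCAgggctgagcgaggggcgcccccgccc
Scg2: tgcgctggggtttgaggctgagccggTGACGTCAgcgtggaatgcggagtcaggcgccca
Sst: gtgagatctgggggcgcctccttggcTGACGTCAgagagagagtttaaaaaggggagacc
Meg3: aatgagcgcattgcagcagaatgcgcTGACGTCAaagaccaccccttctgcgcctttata
Peg3: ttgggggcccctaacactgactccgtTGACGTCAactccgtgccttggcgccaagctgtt
The match starts 78, 72, 68 and 48 bases before the start in Pcsk1, Chgb, Scg2 and Sst, and 57 and 178 bases before it in Meg3 and Peg3. Meg3 has 2 promoters in this table, and only 1 holds the match. The clock gene Hlf also holds it, 9 bases before the start. It was not found in these windows of Ptprn, Scg3, Resp18, Chga, Pth or Per1. A match describes the sequence and is not a measured binding site.

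Some imprinted genes and genes of fetal growth were also lower at W12 in the knockout. Imprinted genes are read from only 1 parental copy, many promote growth before birth, and their decline after birth is part of normal maturation in mice. Of 21 measured members of this list 8 were lower at W12 and none was higher, with a median change of -0.38, beside 1.88% of all genes lower and a median of -0.01. In the wild type 2 were lower, with a median of -0.14, beside 4.70% of all genes lower. The count in the knockout was 5 without the arrays with high thymus markers, and 5 without LH7713 or without LH7721. The difference between the genotypes was called for Meg3, Peg3 and Plagl1, and for none of the list without LH7723.

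Igf2bp3, an RNA-binding protein of fetal tissue, had the largest decrease, with 6.27, 6.10, 6.15 and 6.29 at W12 and 7.89, 7.87, 8.48 and 8.34 at W4. The groups were far apart (change -1.94, SE 0.30, adjusted p = 0.000883). The wild type had 5.70 to 6.30 at W12 and 5.89 to 7.73 at W4 (change -0.58, adjusted p = 0.25), and the difference of -1.37 missed the threshold (adjusted p = 0.128). Zim1, an imprinted zinc finger gene beside Peg3, fell in both genotypes, by 1.58 in the knockout (SE 0.28, adjusted p = 0.0026) and the wild type changed by -1.63 (adjusted p = 0.00114). Its knockout values were 6.22, 6.62, 6.66 and 6.74 at W12 and 7.82 to 8.47 at W4. Peg3, an imprinted zinc finger protein, had 9.71, 9.66, 9.74 and 10.03 at W12 and 10.89, 10.86, 10.71 and 10.74 at W4. It was separated between the ages (change -1.01, SE 0.11, adjusted p = 1.33e-05), against -0.31 in the wild type (adjusted p = 0.0627), and the difference of -0.70 (adjusted p = 0.0264) lost its call without any of 7 single arrays (adjusted p up to 0.0612 without LH7723). The knockout means at W2, W4 and W12 were 9.10, 8.14 and 6.20 for Igf2bp3, 9.33, 8.14 and 6.56 for Zim1 and 11.14, 10.80 and 9.78 for Peg3, a decline over the whole period.

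Meg3, a long noncoding RNA of the imprinted interval between Dlk1 and Dio3 on chromosome 12, led to a look at its neighbours. The interval spans 829 kb and holds 66 genes on these arrays, among them the host transcripts Rian and Mirg with the small nucleolar RNAs and miRNAs inside them, so that probe sets of host and member may read the same precursor. It was chosen after its values were seen. In the knockout 13 of its genes were lower at W12 and none was higher, beside 1.88% of all genes lower, 60 had a negative change and the median was -0.25. In the wild type 3 were lower, beside 4.70% of all genes, 37 had a negative change and the median was -0.01. The count in the knockout was 7 without LH7725 and 6 without the 3 arrays with high thymus markers. All 13 genes had an unadjusted p under 0.05 there, but they were chosen by the fit that holds the same remaining arrays. In the fit of the 8 knockout arrays alone it was 6. The difference between the genotypes was called for Meg3 only, and that call was lost without any of 14 single arrays (adjusted p up to 0.107 without LH7723).

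Within the interval Meg3 had 8.47, 7.96, 8.25 and 8.47 at W12 and 9.23, 9.11, 9.12 and 9.14 at W4 (change -0.86, SE 0.16, adjusted p = 0.00354), against a wild-type change of 0.07 (adjusted p = 0.86). Rian had 7.93, 8.02, 7.63 and 7.59 at W12 and 8.99, 8.61, 8.52 and 8.89 at W4 (change -0.96, SE 0.17, adjusted p = 0.0028). The small nucleolar RNA AF357355 had 5.19, 5.23, 5.35 and 4.61 at W12 and 6.11 to 6.66 at W4 (change -1.28, SE 0.23, adjusted p = 0.00326). None of these 3 overlapped between the ages. Rian and AF357355 also fell in the wild type, by 0.56 and 0.78 (adjusted p = 0.0388 and 0.0347). Dlk1 and Dio3, the protein-coding genes at the ends, changed by -0.53 and -0.28 without a call. Of the 51 miRNA genes 6 were lower. Many of the interval's genes were close to the lower end of the scale, with 21 under 4.5 at W4 and none of these called.

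Mir485 and Mir667 kept their calls with each single array left out. Mir485 had 4.94, 5.04, 5.14 and 4.94 at W12 and 5.92, 5.64, 5.66 and 5.84 at W4 (change -0.75, SE 0.13, adjusted p = 0.00176). Mir667 had 5.96, 5.82, 5.26 and 5.80 at W12 and 6.35 to 6.76 at W4 (change -0.78, SE 0.17, adjusted p = 0.0131). On another chromosome, Mir29a had 3.32, 3.65, 3.06 and 3.35 at W12 and 4.54, 4.67, 3.66 and 4.70 at W4 in the knockout (change -1.05, SE 0.23, adjusted p = 0.0106), against 3.69 to 4.39 at W12 and 3.20 to 3.88 at W4 in the wild type (change 0.54, adjusted p = 0.138), with a difference of -1.59 (adjusted p = 0.0186). LH7717 stood just above the knockout mice at W12. All these levels of Mir29a, from 3.06 to 4.70, were close to the lower end of the scale. In the fit of the 8 knockout arrays alone Mir667 and Mir29a lost their calls (adjusted p = 0.0683 and 0.0907). A probe set of a miRNA gene can read precursor or host RNA, so levels of the mature miRNAs were not measured here. Mature miRNAs of these genes, leaving out mmu-miR-29a-5p, are given from RefSeq (GRCm38.p6). They are written from the start of the RNA to its end, with the seed, bases 2 to 8, in capitals. They lie at chr12:109734946-109734967 (plus), chr12:109720020-109720044 (plus), chr12:109720061-109720083 (plus) and chr6:31062673-31062694 (minus).
mmu-miR-485-3p: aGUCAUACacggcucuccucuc
mmu-miR-667-5p: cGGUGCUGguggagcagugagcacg
mmu-miR-667-3p: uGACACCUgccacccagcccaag
mmu-miR-29a-3p: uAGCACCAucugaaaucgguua
No seed was shared among these miRNAs.

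**Figure D4:**
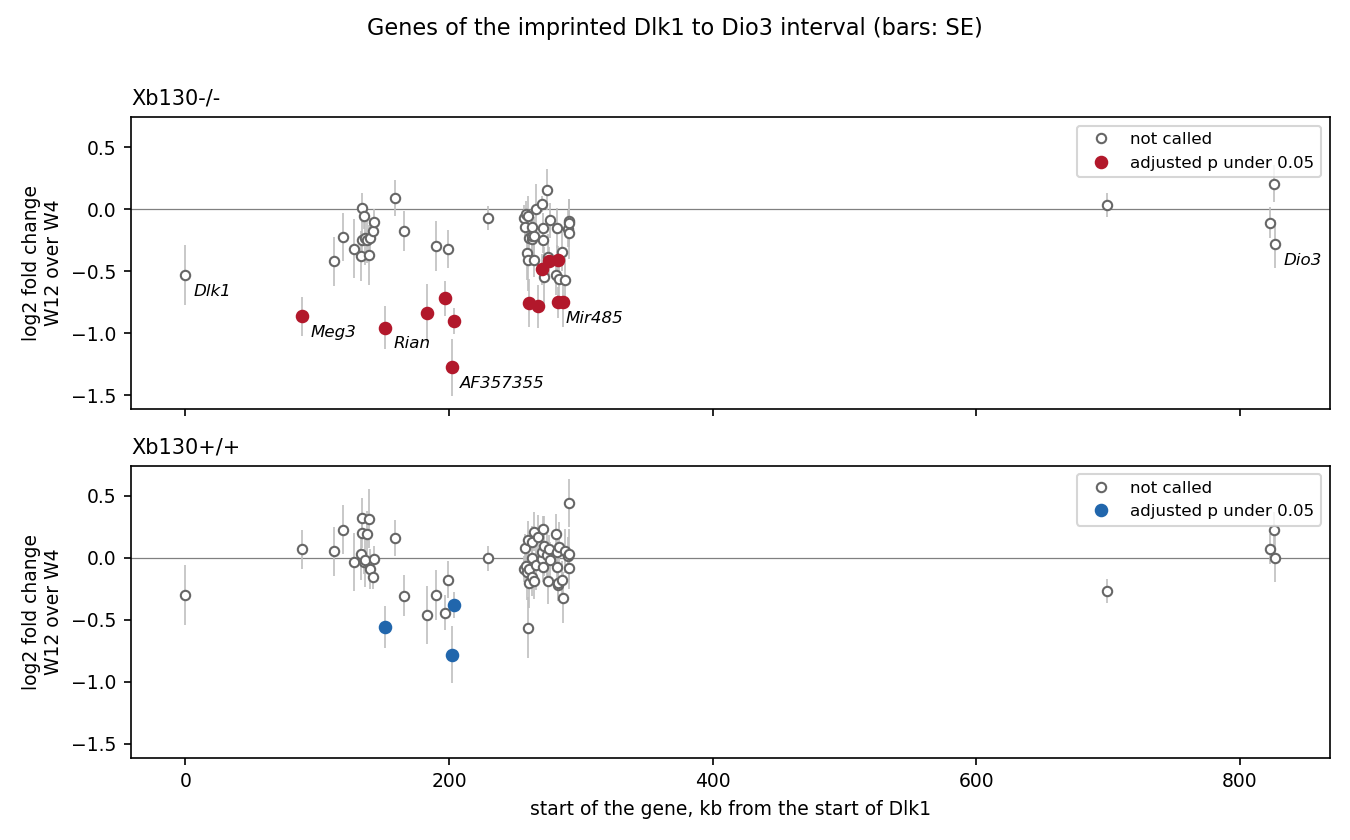
Log2 fold change W12 over W4 with its SE of the 66 genes between Dlk1 and Dio3, by the distance of their start from that of Dlk1, in Xb130-/- thyroid (upper panel) and Xb130+/+ thyroid (lower panel). Filled points were called, 13 in Xb130-/- and 3 in Xb130+/+, and all of them lie below 0.

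Part of the matrix genes were lower at W12 in both genotypes. Beside 1.88% of all genes lower in the knockout and 4.70% in the wild type, of 23 fibrillar and basement membrane collagens 8 were lower at W12 in the knockout and 14 in the wild type, with medians of -0.39 and -0.64, and the difference was called for none. The knockout count was 4 without LH7719, 2 without the arrays with high thymus markers and 5 in the fit of the 8 knockout arrays alone. Col3a1, a collagen of loose connective tissue, had 9.17, 9.06, 9.15 and 9.10 at W12 and 10.38, 9.87, 10.18 and 10.01 at W4, which do not overlap (change -0.99, SE 0.16, adjusted p = 0.00161), against -1.41 in the wild type (adjusted p = 0.000101). Col1a1, a chain of the main fibrillar collagen, changed by -0.93 in the knockout (SE 0.18, adjusted p = 0.00438) and by -1.21 in the wild type (adjusted p = 0.000391). Of 16 fibroblast markers 7 were lower in the knockout and 5 in the wild type, among them Mfap5, a microfibril protein, with 10.55, 10.26, 10.64 and 10.54 at W12 and 11.02 to 11.47 at W4 (change -0.77, SE 0.11, adjusted p = 0.000537). That count includes these collagens and was 4 without LH7713, LH7719 or LH7723 and 4 without the arrays with high thymus markers. Of 39 matrix glycoproteins and proteoglycans 9 were lower and 3 higher in the knockout, against 16 lower and 2 higher in the wild type. The 9 became 4 without LH7713, and 2 without the arrays with high thymus markers. Of 33 genes of matrix crosslinking and proteolysis 2 were lower and 1 was higher in the knockout, against 8 lower and 2 higher in the wild type.

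Genes of mitosis were called in the wild type only, without a called difference between the genotypes. None of the 34 measured members was called in the knockout (median -0.23), where the mean of the list ran from 8.02 to 9.23 at W12 and from 8.34 to 9.04 at W4. In the wild type 23 were lower at W12 (median -1.16), beside 4.70% of all genes lower, and 6 were without LH7718. The median in the knockout was -0.43 without the arrays with high thymus markers. Dividing thymocytes also express such genes, and the part of thymus RNA in these levels was not tested. Among 34 genes of DNA replication none was called in the knockout (median 0.27). In the wild type 1 was lower (median -0.32), again beside 4.70% of all genes lower. In oxidative phosphorylation 2 of 43 genes were higher in the knockout, beside 2.46% of all genes higher. Their changes were 0.23 for Ndufa8 and 0.26 for Cox4i1, and with arrays scaled to one median none was called. None of 27 genes of the TCA cycle and none of 28 of fatty acid oxidation was called in the knockout, beside 4.35% of all genes called in either direction.

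Some immune genes were higher at W12 in the knockout. The counts were 6 of 23 genes of antigen presentation, 4 of 31 chemokines, 4 of 23 macrophage markers and 3 of 21 complement genes, with none lower and medians of 0.25, 0.21, 0.19 and 0.19, beside 2.46% of all genes higher and a median of -0.01. With arrays scaled to one median the macrophage markers had 3 higher and 2 lower. Other immune lists had fewer calls for their size or calls both ways, with 4 higher and 1 lower of 39 inflammatory cytokines and receptors (median -0.01), 1 higher of 36 interferon-stimulated genes and 1 lower of 13 dendritic cell markers. In the wild type 5, 1, 1 and 2 genes of the first 4 lists were higher, beside 5.42% of all genes. Of their members only 2 macrophage markers were lower there, beside 4.70% of all genes. The difference from the wild type was called for none of the first 4 lists. Their knockout counts in the order given were 1, 1, 0 and 1 without LH7719, and 1, 1, 1 and 0 without the arrays with high thymus markers. Thymus markers were higher in LH7725 and LH7727, and their part in these counts was not tested.

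Among the named genes of these 4 lists, H2-Oa, Ccl5 and C3ar1 kept their calls with each single array left out. H2-Oa, a chain that modulates peptide loading on class II molecules in B cells, had 8.08, 7.91, 8.40 and 7.99 at W12 and 7.36, 7.53, 7.54 and 7.42 at W4 (change 0.63, SE 0.13, adjusted p = 0.0065). Ccl5, a chemokine of T cells, had 8.76, 8.64, 9.41 and 8.77 at W12 and 7.72, 7.68, 8.13 and 7.83 at W4 (change 1.06, SE 0.24, adjusted p = 0.0137). C3ar1, the receptor of the complement fragment C3a, had 8.74 to 9.06 at W12 and 8.33 to 8.60 at W4 (change 0.41, SE 0.09, adjusted p = 0.00951). None of the 3 overlapped between the ages, and LH7725 had the highest value in each. Without the arrays with high thymus markers the changes were 0.55, 0.96 and 0.36 (adjusted p = 0.101, 0.0652 and 0.0706). In the fit of the 8 knockout arrays alone H2-Oa and Ccl5 passed (adjusted p = 0.0433 and 0.041) and C3ar1 did not (adjusted p = 0.0874).

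Among immunoglobulin genes, the calls of Igha and Ighv1-34 rested on single mice and that of Ighm did not. Igha, the constant region of IgA, had 6.57, 6.36, 9.67 and 11.36 at W12 and 6.06, 5.67, 5.97 and 4.83 at W4 (change 2.86, SE 0.70, adjusted p = 0.0237). The 2 arrays with high thymus markers held the high values, and the call was lost without LH7719, LH7725 or LH7727 (adjusted p = 0.0781, 0.0754 and 0.0541). Ighm, the constant region of IgM and chosen after its values were seen, had 9.60, 10.05, 11.40 and 10.72 at W12 and 9.0, 8.87, 9.75 and 8.88 at W4. It changed by 1.31 (SE 0.28, adjusted p = 0.00934) with 1 overlapping pair of mice. The call was kept with each single array left out (adjusted p up to 0.0371 without LH7719), and the change was 0.90 without the arrays with high thymus markers (adjusted p = 0.00293). In the fit of the 8 knockout arrays alone its call was lost (adjusted p = 0.141). Of 15 measured B and plasma cell markers Ighm alone was called in the knockout, beside 2.46% of all genes higher. Ighv1-34, a variable segment, changed by 1.97 (adjusted p = 0.0303). It lost its call without any of 4 single arrays (adjusted p up to 0.0702 without LH7715). Constant and variable immunoglobulin segments are similar to each other, so single segments are uncertain.

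**Figure D5:**
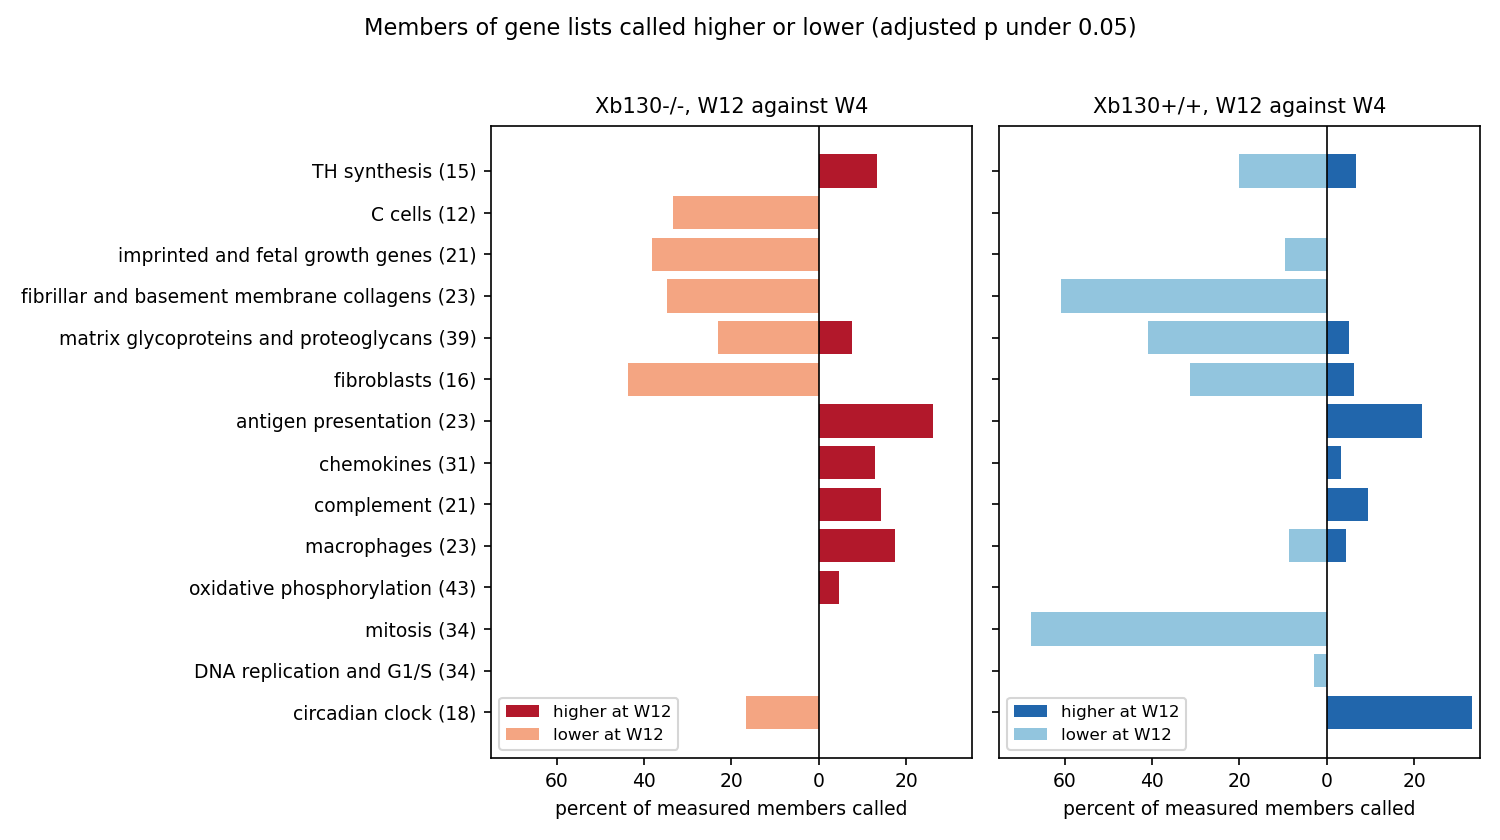
Percent of the measured members (number in brackets) of 14 gene lists called higher or lower at W12 than at W4, in Xb130-/- thyroid (left) and Xb130+/+ thyroid (right). C cell markers and imprinted genes have 4 and 8 lower members in Xb130-/-, and mitosis genes have none called in Xb130-/- and 23 lower in Xb130+/+.

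The clock genes called in the knockout were lower at W12, and those called in the wild type were higher. Over all genes tested only 1 was called lower in the knockout and higher in the wild type, so these were largely different genes. Of 18 members 3 were lower at W12 in the knockout and none was higher, beside 1.88% of all genes lower, against 6 higher and none lower in the wild type, beside 5.42% of all genes higher. The medians were -0.21 in the knockout and 0.25 in the wild type, and the difference between the genotypes was called for 2 members, both more negative in the knockout. The knockout count was 1 without the arrays with high thymus markers, 1 without any of 6 single arrays, among them LH7719, and 0 in the fit of the 8 knockout arrays alone. The wild-type count was 2 without LH7714 or LH7726, and the count of differences was 0 without any of 12 single arrays, among them LH7723. Per1, a repressor in the clock loop, had 10.45, 9.77, 10.73 and 10.11 at W12 and 11.32, 11.48, 10.73 and 11.66 at W4. LH7717 at W4 was level with LH7725 at W12, so the groups touch (change -1.03, SE 0.22, adjusted p = 0.0106). The call was lost in the fit of the 8 knockout arrays alone (adjusted p = 0.101). Per2 and Hlf were lower with overlap, at -0.93 and -0.86, and their calls were lost without LH7719 (adjusted p = 0.16 and 0.108). The time of day at which glands were taken is not known here.

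Some genes changed in the wild type but not in the knockout. Ptgds, a prostaglandin D synthase, had 8.61, 8.83, 8.68 and 8.73 at W12 and 8.71 to 8.92 at W4 in the knockout (change -0.14, adjusted p = 0.649), against 9.55 to 9.92 at W12 and 8.19 to 9.02 at W4 in the wild type (change 1.13, adjusted p = 0.00032). The difference was -1.27 (SE 0.22, adjusted p = 0.00831) and lost its call without the arrays with high thymus markers (adjusted p = 0.0571). Rgs7, a regulator of G protein signaling, changed by -0.23 in the knockout and by 0.93 in the wild type, with a difference of -1.17 (adjusted p = 0.0308), a call that was lost without any of 7 single arrays (adjusted p up to 0.0688 without LH7724).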

How the data were processed

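Total RNA of 24 thyroid samples from male mice was hybridized to mouse gene arrays. The deposited log2 values were made by the authors from probe intensities by robust multiarray average with the package oligo (version not given in the sources used here), that is background correction, quantile normalization over all arrays and median polish. Probe intensities were not used here, and the number of arrays limits the precision. From these values, each gene was fitted in R 4.3.3 by limma 3.58.1, giving every group of genotype and age its own mean over all 24 arrays (18 residual and 2.85 prior degrees of freedom), with Benjamini-Hochberg adjustment of p-values over all genes. A further 2021 probe sets have no symbol and were not tested, and all 23185 genes matched RefSeq (GRCm38.p6). No pooled column or unassigned column was used. The program was tested on simulated data.

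Named genes are the 10 largest increases and decreases among called genes without overlap, up to 4 called members of each list, the 5 largest differences between genotypes in each direction, Afap1l2, the thymus check genes and the TH genes. Genes and lists were chosen with earlier results of these data known. List members missing from the arrays were not analysed here. Alternatives were the compared arrays alone, a trended and robust variance, array weights, a filter at the 30th percentile, scaling to one median, all probe sets, each array left out, and 3 treatments of the thymus markers: leaving out arrays over 0.5 above every wild-type array, leaving out LH7725 and LH7727 (added after seeing the data), and the thymus marker mean as a covariate. Single arrays that stood far from their group were sought with the ratio of gap to range. The exact permutation test of 4 against 4 mice cannot give a two-sided p under 0.0286.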

Additional observations from a re-analysis of the deposited data

Results flagged for a closer look

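A single array stood far from the rest for 10 of 196 groups of 4 values, and chance gives about 1 in 20. At W12 LH7725 was high in Slc7a11 (8.01, others 7.03 to 7.13), Ccl5 (9.41, others 8.64 to 8.77), Psmb9 of the immunoproteasome (9.19, others 8.68 to 8.72) and the complement gene C7 (9.1, others 8.24 to 8.32), and low in the potassium channel subunit Kcne2 (5.33, others 5.54 to 5.58). It is 1 of the arrays with raised thymus markers, whose part in these values was not tested. LH7723 was low in Chgb (8.12, others 8.28 to 8.3) and Col1a1 (9.73, others 10.05 to 10.11), and LH7727 was low in Cox4i1 (10.4, others 10.6 to 10.61). At W4 LH7713 was high in Ndufa8 (10.7, others 10.56 to 10.58) and LH7717 was low in Mir29a (3.66, others 4.54 to 4.7). Leaving out the far array ended the call of Slc7a11, Chgb, Col1a1, Ccl5 and Mir29a in no case. It ended that of Psmb9 without LH7725 (adjusted p = 0.103) and that of C7 without LH7725 (adjusted p = 0.0856).

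The change from W4 to W12 differed between the genotypes, by limma's test of the difference itself, for 22 of the 98 named genes. The difference, knockout minus wild type, was more positive in the knockout for Ly6i (3.0), Slc34a2 (2.37), Slc7a11 (2.14), Them5 (2.02), Hs3st4 (1.96), Mansc4 (1.9), Coch (1.9), Fezf2 (1.69), Vsnl1 (1.47), Adcy8 (1.01) and Slc26a4 (0.84). It was more negative for Mir29a (-1.59), Hlf (-1.29), Ptgds (-1.27), Glb1l2 (-1.21), Rgs7 (-1.17), Pcsk1 (-1.03), Scg3 (-1.0), Meg3 (-0.93), Chgb (-0.92), Clca3b (-0.81) and Peg3 (-0.7). Hlf and Glb1l2 lost this call without any of 13 single arrays (adjusted p up to 0.108 and 0.0993 without LH7723), and Clca3b without any of 12 (adjusted p up to 0.0911 without LH7715). Without the arrays with high thymus markers the calls of Ptgds, Chgb, Clca3b, Meg3 and Hlf were lost (adjusted p = 0.0571, 0.1, 0.0679, 0.0688 and 0.069).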

How the results depend on the processing

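The 1008 genes called in the knockout became 230 in a fit of its 8 arrays alone, 365 without the arrays with high thymus markers, 415 without LH7725 and LH7727 (chosen after seeing the data) and 649 with the thymus marker mean as a covariate. They ranged from 492 to 1055 with single arrays left out and from 1010 to 1328 under the other alternatives. The fit of 8 arrays has fewer residual degrees of freedom and takes the spread from these arrays only. The cause of its lower count and of the other shifts was not tested. The 232 genes whose changes differ ranged from 165 to 316 under the other alternatives and from 102 to 290 with single arrays left out, and the 2347 wild-type calls from 2058 to 2933 and from 1221 to 2429. Scaling to one median gave 29.3% higher among knockout calls against 56.6% as deposited, 47.1% against 58.6% among differences and 41.8% among wild-type calls. No named gene changed direction while called. Of the 77 named genes called in the knockout, 48 lost their call in the fit of 8 arrays and 41 without the arrays with high thymus markers. No paired analysis was possible because the labels give no replicate numbers, batches or litters that link mice of different groups. Without probe intensities, signal above background could not be assessed.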
